A study of Homo sapiens with 16 samples.

Results

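Interferon-stimulated genes and the interferon receptors were followed in U937 cells after induction of AML1-ETO. The group holds 43 genes taken by name, and its members are all probe sets whose only gene symbol on the platform is one of those names. It comprises 56 of the 12626 probe sets on the array and covers 40 of the 43 genes, out of 8228 genes with a probe set of their own. IFI30, OAS3 and USP18 have no probe set of their own, and 1 further probe set is shared by IFITM2, IFITM3 and IFITM1. Of the 56 probe sets, 40 (30 genes) were bright enough to be tested, among 7824 tested in all. U937 is a human monocytic leukaemia line, and AML1-ETO is the fusion protein made by the t(8;21) translocation of acute myeloid leukaemia. All samples carry the fusion construct behind a tetracycline-controlled promoter. Cells with AML1-ETO induced were taken at 12, 24, 48 and 72 h. They were set against control cells taken at 0, 24, 48 and 72 h, with 2 Affymetrix U95Av2 arrays in each of the 8 groups. The labels mention controls of 12 h, but none is among the 16 arrays. Induced cells at 12 h were therefore set against controls at 0 h. The cells are 1 line, the fusion is driven by an artificial promoter, and the sources used here do not say whether tetracycline itself differed between the groups. No label says that replicates came from separate cultures. The p-values then cover only the spread between these samples, and that spread may be technical.

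Values are linear array intensities, and 25.8% of all values lie below 0. Intensities under 135.61, the 40th percentile of all values, were raised to that floor before log2 was taken. Each effect is the difference between the mean log2 values of induced and control cells at 1 time, from a limma model over all 16 arrays, and the average effect is the mean of the effects at 24, 48 and 72 h. Folds are taken from these differences of mean log2 values. A probe set is called at a Benjamini-Hochberg adjusted p under 0.05 over all 7824 tested. Where control arrays lay at the floor and no induced array did, the fold is a lower bound and is given as "at least". The number of arrays limits the precision. RUNX1T1, the ETO part of the fusion, read on its 1 tested probe set -117 and 86.1 in induced cells at 12 h, 1592 and -47.5 at 24 h, 8649.6 and 3974 at 48 h, and 10603 and 8355 at 72 h, against at most 91.4 on the 8 control arrays. It was read on both induced arrays at 48 and 72 h, but not on either array labelled as induced at 12 h nor on replicate 2 of those labelled as induced at 24 h. The other 3 probe sets of RUNX1T1 were too dark to test, with at most 352 on any array, a control of 72 h. Of 17 myeloid markers 15 are on the array, and 11 of them had a median over the floor. CD14, CD68, CSF1R and ITGAM did not. The summed level of the myeloid markers ran from 34452 to 66486 on induced arrays at 24 to 72 h, against 53855 to 65829 on their controls. The lymphoid, erythroid and epithelial or fibroblast marker sums overlapped between the groups, at 5119.6 to 7891 against 3639 to 6532 for the lymphoid one. Their part in the results of these genes was not tested. In bulk RNA, fewer cells of a type and less RNA per cell cannot be told apart.

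Type I interferons bind the receptor formed by IFNAR1 and IFNAR2, and interferon gamma binds the receptor formed by IFNGR1 and IFNGR2. Both activate Janus kinases, which pass the signal to STAT proteins, and with IRF9 these bind the interferon-stimulated response element (ISRE) in the promoters of target genes. The targets include RNA sensors and nucleases, antiviral proteins that block entry or translation, and the ubiquitin-like modifier ISG15. In myeloid cells the same pathway is also engaged during differentiation.

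The promoters of members are shown because the ISRE is the sequence through which this pathway reads its targets. RefSeq promoters (build GRCh38.p14, 250 bases before to 50 after each annotated start) were given for 33 of the 43 member genes. The ISRE core was searched for on both strands as GAAANNGAAA, and matches may overlap. Of the 33 genes, 21 (63.6%) hold the core in at least 1 promoter, against 4.38% of all 27305 genes in the table and 4.16% of 15843 protein-coding genes. The gamma-activated site, searched for as TTCNNNGAA, lies in the promoters of 8 of the 33 genes (24.2%), against 9.38% of all genes. In the sequences that follow, capitals mark each ISRE core, also where it reads as its reverse complement, and the name of each gene comes first. ISG15, IFIT1, IFI6 and LGALS3BP are genes that rose at 72 h, IFITM3 is a gene that fell although its promoter holds the core, and the promoter of IFNGR2, which fell too, holds none.
ISG15, chr1:1013247-1013546, plus strand: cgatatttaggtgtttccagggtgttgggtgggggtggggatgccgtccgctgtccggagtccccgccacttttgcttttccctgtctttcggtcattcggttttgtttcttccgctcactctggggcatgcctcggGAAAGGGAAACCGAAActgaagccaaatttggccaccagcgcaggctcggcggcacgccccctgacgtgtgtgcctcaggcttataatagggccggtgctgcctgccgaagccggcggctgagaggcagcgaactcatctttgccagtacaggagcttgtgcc
IFIT1, chr10:89392373-89392672, plus strand: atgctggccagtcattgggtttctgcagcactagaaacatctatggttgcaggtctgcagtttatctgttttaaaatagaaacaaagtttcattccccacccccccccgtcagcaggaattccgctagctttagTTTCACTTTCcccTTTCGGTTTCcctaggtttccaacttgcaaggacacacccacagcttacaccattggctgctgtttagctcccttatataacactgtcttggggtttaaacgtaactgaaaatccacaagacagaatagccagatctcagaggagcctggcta
IFI6, chr1:27672143-27672442, minus strand: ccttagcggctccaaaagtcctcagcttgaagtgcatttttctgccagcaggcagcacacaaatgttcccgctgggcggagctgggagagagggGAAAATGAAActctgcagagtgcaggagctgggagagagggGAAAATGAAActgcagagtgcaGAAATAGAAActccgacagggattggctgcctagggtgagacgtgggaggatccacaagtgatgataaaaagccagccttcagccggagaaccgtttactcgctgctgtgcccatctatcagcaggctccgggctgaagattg
LGALS3BP, chr17:78979874-78980173, minus strand: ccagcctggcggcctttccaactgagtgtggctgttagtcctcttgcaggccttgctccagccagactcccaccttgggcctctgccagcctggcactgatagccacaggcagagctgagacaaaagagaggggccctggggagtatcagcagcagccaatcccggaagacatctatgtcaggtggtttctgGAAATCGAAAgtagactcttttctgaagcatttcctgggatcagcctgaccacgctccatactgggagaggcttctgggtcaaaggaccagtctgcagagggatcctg
IFITM3, chr11:320811-321110, minus strand: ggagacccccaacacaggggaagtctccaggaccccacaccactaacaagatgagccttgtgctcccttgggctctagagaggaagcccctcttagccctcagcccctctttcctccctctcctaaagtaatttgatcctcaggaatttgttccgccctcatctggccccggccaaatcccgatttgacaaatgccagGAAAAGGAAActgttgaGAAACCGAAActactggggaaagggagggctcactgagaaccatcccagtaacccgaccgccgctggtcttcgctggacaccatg
IFNGR2, chr21:33403163-33403462, plus strand: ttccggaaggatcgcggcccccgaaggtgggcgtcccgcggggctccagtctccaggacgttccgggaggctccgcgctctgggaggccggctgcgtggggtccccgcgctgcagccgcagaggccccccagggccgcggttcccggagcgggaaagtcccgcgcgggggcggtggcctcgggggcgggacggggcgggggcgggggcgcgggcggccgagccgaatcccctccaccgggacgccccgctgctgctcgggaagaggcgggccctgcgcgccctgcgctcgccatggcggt
The 2 cores of ISG15 overlap, those of IFIT1 lie on the strand opposite to the gene, and IFI6 holds 3 cores. The share of genes with a core was 8 of 12 (66.7%) among genes called higher at 72 h, 1 of 2 among those called lower, and 6 of 9 (66.7%) among those tested and not called. The gamma-activated site was found in 0 of the 12, 0 of the 2 and 4 of the 9. A match describes the letters in this window and is no measured binding site.

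**Figure D1:**
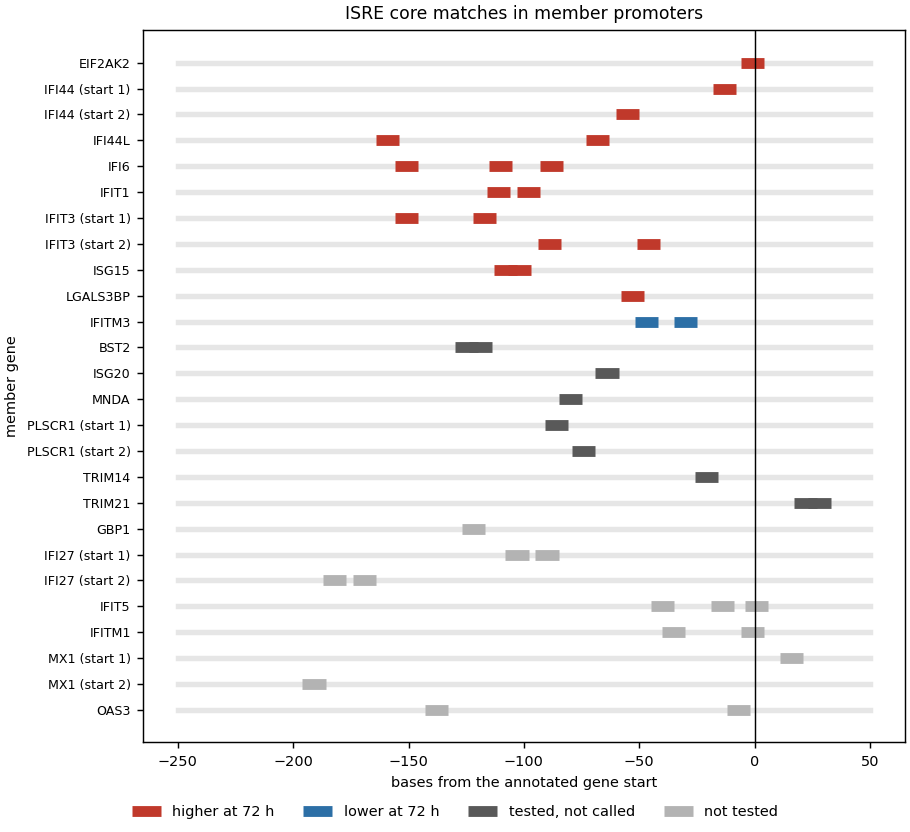
Positions of ISRE core matches in the promoters of member genes, in bases from the annotated gene start (x axis), with 1 row for each promoter that holds a match (y axis). Colours give the call at 72 h: matches occur in promoters of genes called higher, of IFITM3, which was called lower, of genes tested and not called, and of genes not tested.

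By 48 h after induction a part of the interferon-stimulated genes had risen, and by 72 h more had. ISG15, IFI6, OASL, IFIT1, IFIT3, IFI16 and IFNGR1 were called higher at both times, and EIF2AK2 on its probe set 38662_at alone. IFITM2, IFITM3 and IFNGR2 were called lower at both. Several of the calls at 48 h ended on leaving out single arrays. At 48 h, 12 of the 40 member probe sets (9 of 30 genes) were called higher, where 10.5% of all tested probe sets were, and 3 were called lower, where 8.68% of all were. The 12 dropped to 5 without replicate 1 of the induced cells at 48 h, and to 7 without either control array of 48 h. At 72 h, 18 (15 genes) were called higher against 16.1% of all, and 4 were called lower against 13.9% of all. In the average effect, 20 (16 genes) were called higher against 18.5% of all, and 3 lower against 13.4%. The median log2 effect of the member probe sets was 0.59 at 48 h and 0.97 at 72 h, beside medians of 0.09 and 0.18 over all tested probe sets. These shares and medians describe the probe sets that passed the filter on low values and not all members. Only 28 of the 40 would have passed through the 8 control arrays alone. The other 12, which are the probe sets 915_at of IFIT1, 38388_at of OAS1, 38432_at of ISG15 and both of IFIT2 and OASL, with those of IFIT3, IFI44, IFI44L, ISG20 and LGALS3BP, passed only with the induced arrays, so that a high reading there is what let them be tested. Of these, OAS1 and ISG20 were not called at any time. Among the 28, 6 were called higher and 3 lower at 48 h, and 9 higher and 4 lower at 72 h.

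**Figure D2:**
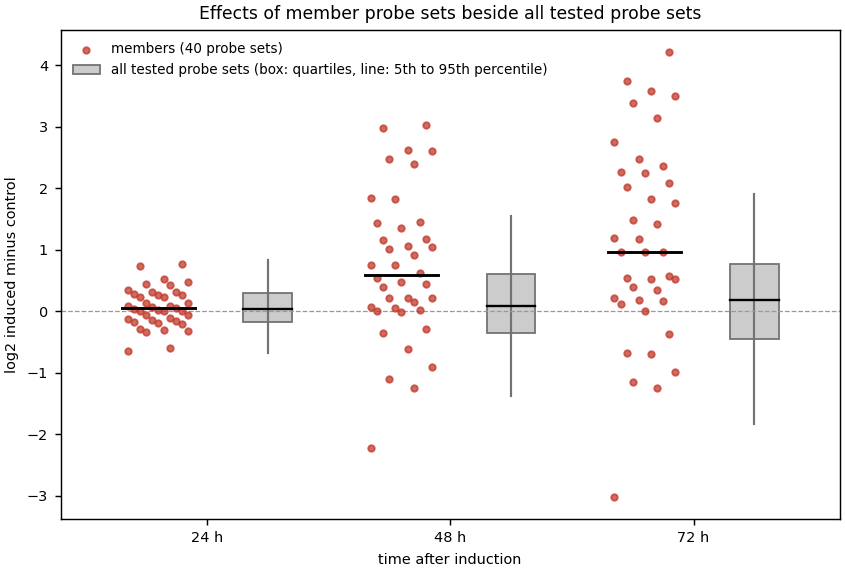
Effects of the 40 tested member probe sets (red points, black line at their median) beside all 7824 tested probe sets (grey box from the lower to the upper quartile, black line at the median, grey line from the 5th to the 95th percentile), as log2 induced minus control (y axis) at 24, 48 and 72 h (x axis). The member median lies at 0.05, 0.59 and 0.97, and that of all probe sets at 0.04, 0.09 and 0.18.

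Separation of the arrays was counted on the same values as the calls and is no separate support for them. On 16 member probe sets (12 genes) all 4 induced arrays of 48 and 72 h lay above all 8 control arrays, a rule chosen after the values were seen, and 14.4% of all tested probe sets did so. The 40 member probe sets again include the 12 that passed the filter only with the induced arrays, which raises this count. On 4 (IFITM2, IFITM3, MX2 and IFNGR2) they lay below all 8, against 11.1% of all. With the arrays of 24 h included, 1 member probe set of SP100 lay above its controls on all 6 induced arrays (3.25% of all) and 0 lay below (1.62% of all). Among the 18 probe sets called higher at 72 h, 11 (8 genes) were also called at 48 h, and 17 had the larger fitted effect at 72 h. Replicate 1 of the induced cells at 72 h read highest of the 16 arrays on all 18, and exceeded replicate 2 on all 18, whereas it did so on 53.7% of all tested probe sets. RUNX1T1 was also higher on that array than on replicate 2. The part of that array in the results was not tested beyond leaving it out. That ended 9 calls of 8 member probe sets: those of OAS2, MX2, IFNGR1, IFI44L and 909_g_at of IFIT2 at 72 h, that of 32814_at of IFIT1 at 48 h, and the average effects of IFI35, IFI44L and MNDA.

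**Figure D3:**
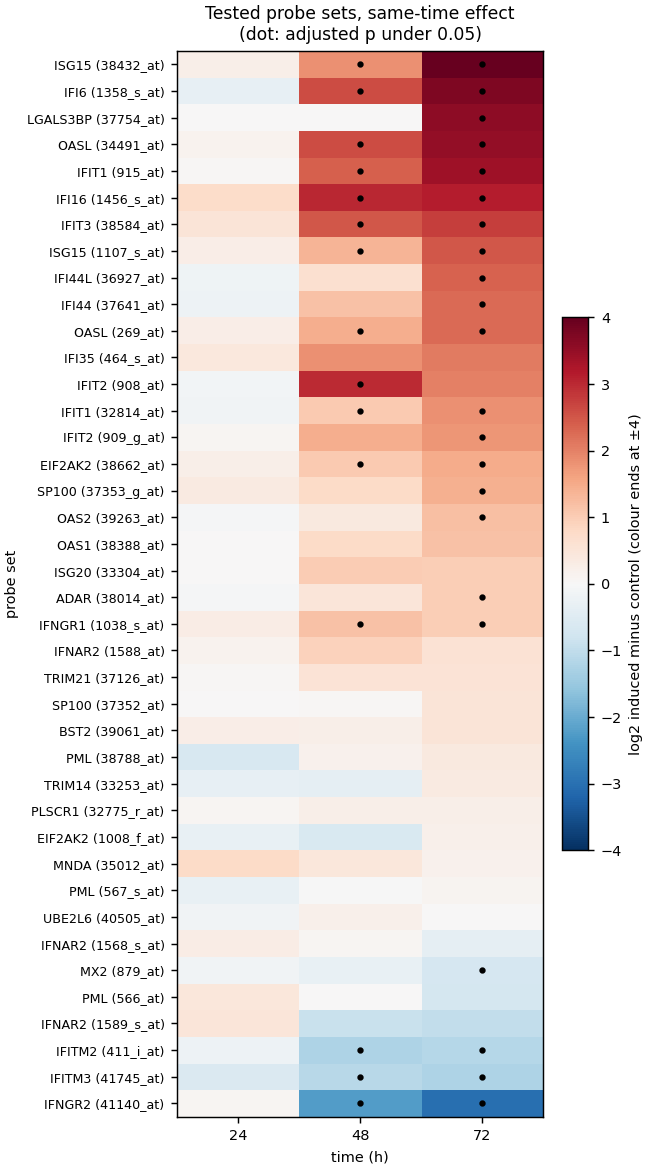
Effects of the 40 tested member probe sets (rows, ordered by the effect at 72 h) at 24, 48 and 72 h (columns), as log2 induced minus control (colour). A dot marks an adjusted p under 0.05: no probe set has one at 24 h, 15 have one at 48 h and 22 at 72 h.

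The interferon genes themselves, the ligands of the pathway, were mostly too dark to test in these cells. Of 16 interferon genes 12 are on the array, and 1 of them, IFNW1, was tested and was not called. IFNB1 read below 0 on all 16 arrays, with a highest value of -1.3, and no probe set of IFNG exceeded 177 on any array. Among the interferon alpha genes IFNA14 read 229 and 244 in induced cells at 72 h, against -257 and -2.3 in controls, while 1 control of 24 h read 269.5. IFNA5 read 97.4 and 413 on probe set 1540_f_at in induced cells at 72 h, against 176.5 and 109.5 in controls. IFNW1, which encodes interferon omega, read 746 and 131 at 48 h and 248 and 218 at 72 h in induced cells, against 33.9 and 55.5 at 48 h and 313 and 198 at 72 h in controls. Its 1 high value, 746, came from replicate 1 of the induced cells at 48 h.

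The interferon gamma receptor chains moved in opposite directions. IFNGR2, the chain that binds the kinase JAK2, fell at 48 and 72 h, while IFNGR1, the ligand-binding chain, rose. IFNGR2 read 2461 and 2662 at 12 h, 2237 and 2816 at 24 h, 527 and 862 at 48 h, and 396 and 301 at 72 h in induced cells. On the controls it read 3194 and 3180.0 at 0 h, 1889 and 2924 at 24 h, 3153 and 3141 at 48 h, and 3355 and 2307 at 72 h. The 4 induced arrays of 48 and 72 h lie under every other array. It fell 4.67-fold at 48 h (log2 -2.22, SE 0.29, limma adjusted p = 0.000166) and 8.05-fold at 72 h (log2 -3.01, SE 0.29, limma adjusted p = 5.92e-06). IFNGR1 read 1485 and 1217 at 12 h, 1378 and 1114 at 24 h, 2674 and 2358 at 48 h, and 3610.1 and 2472 at 72 h in induced cells. Its controls read 1817 and 1747 at 0 h, 886 and 1133 at 24 h, 954 and 1305 at 48 h, and 1538 and 1522 at 72 h. The induced arrays of 48 and 72 h lie above all controls. It rose 2.25-fold at 48 h (log2 1.17, SE 0.25, limma adjusted p = 0.0054) and 1.95-fold at 72 h (log2 0.97, SE 0.25, limma adjusted p = 0.00992). The call at 72 h ended without replicate 1 of the induced cells (adjusted p = 0.104) or of the controls (adjusted p = 0.0507), and that at 48 h without replicate 1 of the controls (adjusted p = 0.0666).

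The chains of the type I receptor gave no call. IFNAR1, whose probe set was too dark to test, read 221 and 31.9 at 48 h and 76.2 and 239 at 72 h in induced cells, against 98.5 and 246 at 48 h and -283 and 281 at 72 h in controls. IFNAR2 has 3 tested probe sets that disagree in sign. At 72 h probe set 1588_at had a log2 effect of 0.57 (limma adjusted p = 0.416), while 1568_s_at had -0.36 (adjusted p = 0.618) and 1589_s_at -0.99 (adjusted p = 0.194). The arrays of both groups overlap on each of the 3. Under a floor at the median of all values the average effect of 1588_at was called (log2 0.49, limma adjusted p = 0.0304). IFNAR1 and IFNGR2 are neighbouring genes on chromosome 21, with IFNAR2 close by.

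**Figure D4:**
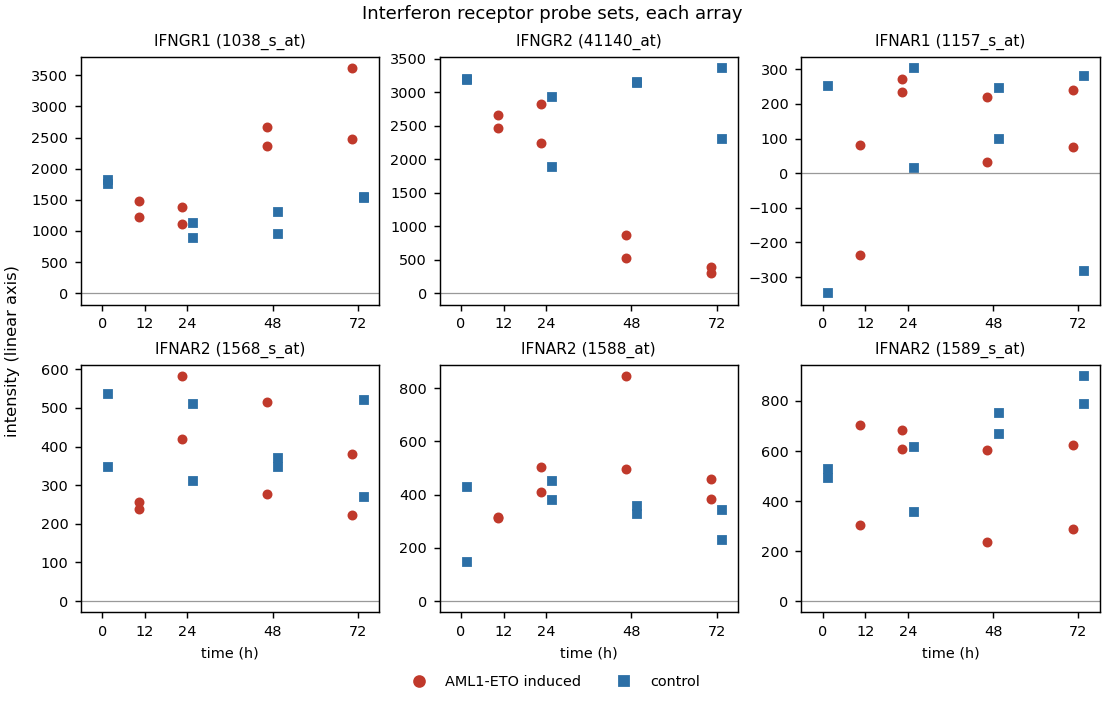
Intensity of each interferon receptor probe set (y axis, linear) on each array by time (x axis, h), with red circles for induced cells and blue squares for controls. IFNGR2 drops to between 301 and 862 in induced cells at 48 and 72 h, IFNGR1 lies between 2358 and 3610 there, and the probe sets of IFNAR1 and IFNAR2 overlap between the groups.

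Downstream of the receptors, IRF9 and JAK1 rose among the genes of signal transduction, and IRF transcription factors were called in both directions. Of 6 listed transduction genes 4 were tested with 6 probe sets. Of these probe sets 3 were called higher at 48 h and 4 at 72 h, against 10.5% and 16.1% of all tested. At these times 0 were called lower. IRF9, the DNA-binding partner of the STAT proteins at the ISRE, read -157 and -178 at 12 h, 439 and -401 at 24 h, 2183 and 2356 at 48 h, and 3839 and 4367 at 72 h in induced cells. Control cells read -208 and 1030.5 at 0 h, -568 and 199.8 at 24 h, 67.7 and 135 at 48 h, and 25.4 and 179.9 at 72 h. All 4 induced arrays of 48 and 72 h lie above all controls, and the rise was at least 26.2-fold at 72 h (limma adjusted p = 0.00035). JAK1, the kinase shared by both receptor types, rose on all 3 of its probe sets at 72 h, by 2.61-fold, 2.23-fold and 2.97-fold. JAK2 and TYK2 were not called.

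Of the IRF family 6 of 8 genes were tested with 9 probe sets, with 3 calls higher and 4 lower at 72 h. Beside these, 16.1% of all tested probe sets were called higher and 13.9% lower. IRF7, a factor that amplifies type I interferon production, rose 5.45-fold at 48 h and 3.63-fold at 72 h (limma adjusted p = 0.00468 and 0.0139). It read 1059 and 962 at 48 h and 1764 and 1005 at 72 h in induced cells, against 179 and 192 at 48 h and 490.2 and 274 at 72 h in controls. IRF2 rose at least 4.75-fold on 1 probe set and 1.67-fold on another at 72 h. IRF3 fell 6.23-fold (limma adjusted p = 0.00138) and IRF5 5.01-fold at 72 h (limma adjusted p = 7.52e-05, with 2.90-fold on its other called probe set). The remaining tested probe set of IRF5, 477_at, was not called at 72 h (log2 -0.58, limma adjusted p = 0.215). IRF8, a myeloid factor, read -102 and 329.5 at 48 h and 231 and 102 at 72 h in induced cells, against 6514 and 5729.9 at 48 h and 8819 and 9354 at 72 h in controls. Its induced arrays lie under all controls by a wide margin. IRF1 was not called. Of 16 listed genes for sensors and their adaptors 3 were tested, namely the kinase IKBKE and the adaptors MYD88 and TICAM1, and 0 were called at 48 or 72 h. The sensors AIM2, IFIH1 and TLR3 were too dark to test.

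The IFIT genes encode proteins that bind foreign RNA and block its translation, and they form a cluster on chromosome 10. All 5 tested probe sets of IFIT1, IFIT2 and IFIT3 were called higher in the average effect, 4 of 5 at 48 h and 4 of 5 at 72 h. Over all tested probe sets the shares called higher were 18.5%, 10.5% and 16.1%. All of the 5 but 32814_at of IFIT1 passed the filter only with the induced arrays, which raises these counts. IFIT1 read on probe set 915_at 135 and 13.6 at 12 h, 148 and 87.3 at 24 h, 822 and 761 at 48 h, and 2014 and 997 at 72 h in induced cells, against 30.9 to 213 (median 112) on the 8 control arrays. It rose at least 5.23-fold at 48 h (log2 2.39, SE 0.39, limma adjusted p = 0.000915) and at least 10.4-fold at 72 h (log2 3.39, SE 0.39, limma adjusted p = 2.76e-05). The second probe set of IFIT1, 32814_at, read 1824 and 1464 at 48 h and 3068 and 2048 at 72 h in induced cells, against 719 and 852 at 48 h and 615 and 813 at 72 h in controls. There the rise was 2.09-fold at 48 h (log2 1.06, SE 0.34, limma adjusted p = 0.0458), a call that ended on leaving out any of 9 arrays (adjusted p up to 0.216), and 3.54-fold at 72 h (log2 1.83, SE 0.34, limma adjusted p = 0.00122). On both probe sets the induced arrays of 48 and 72 h lie above all controls. Those of 12 and 24 h do not, except replicate 1 of 12 h on 32814_at, at 992.5 against at most 968.7 in controls.

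IFIT3 read 135 and 76.5 at 12 h, 236 and 186 at 24 h, 881 and 754 at 48 h, and 2047 and 1110.5 at 72 h in induced cells. The 8 controls ran from -50.5 to 253 (median 158). It rose at least 5.56-fold at 48 h (log2 2.47, SE 0.42, limma adjusted p = 0.00117) and 6.76-fold at 72 h (log2 2.76, SE 0.42, limma adjusted p = 0.00025). IFIT2 depended on single arrays. Its probe set 908_at read 3977 and 289.5 in induced cells at 48 h and 652 and 472 at 72 h, against at most 157 in controls. The call at 48 h (at least 7.91-fold, limma adjusted p = 0.0203) rests on replicate 1. Without that array the log2 effect at 48 h was 1.09 (limma adjusted p = 0.1). Its effect at 72 h was not called (log2 2.03, limma adjusted p = 0.0763). Leaving out a control of 48 h also ended the call (adjusted p = 0.091 without replicate 1, 0.088 without replicate 2). Probe set 909_g_at read 740.4 and 503 at 48 h and 769.9 and 439 at 72 h in induced cells, against 365 and 133 at 48 h and 214 and 132 at 72 h in controls, and rose at least 3.41-fold at 72 h (log2 1.77, SE 0.50, limma adjusted p = 0.0154). That call ended without replicate 1 of the induced cells (adjusted p = 0.115) or replicate 2 of the controls (adjusted p = 0.109). IFIT5, the last gene of the cluster, was not tested. It read 316 and 287 in induced cells at 72 h, against at most 261 on any control array.

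**Figure D5:**
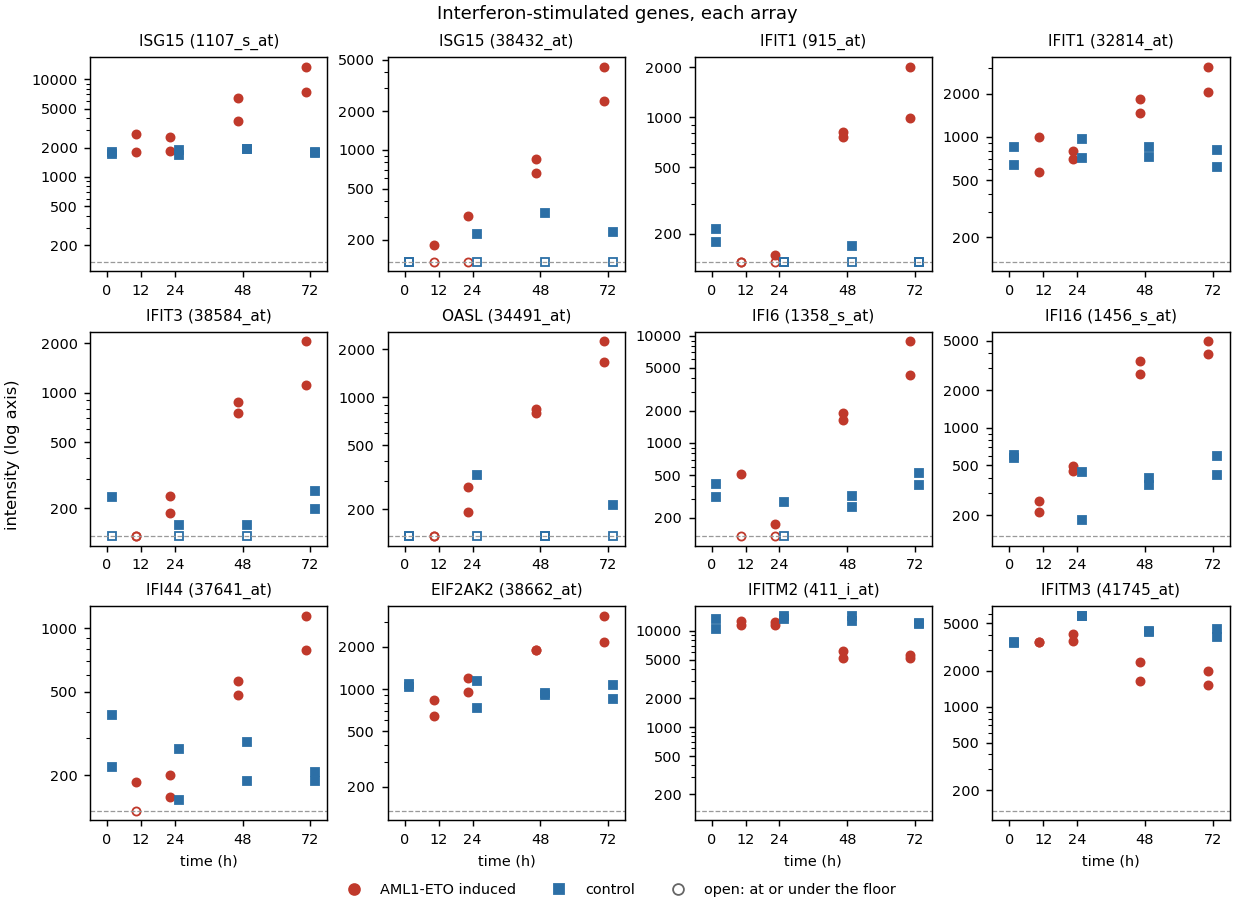
Intensity of 12 member probe sets (y axis, log) on each array by time (x axis, h), with red circles for induced cells and blue squares for controls, and open symbols on the dashed line for values at or under the floor of 135.61. In 10 panels the induced arrays of 48 and 72 h lie above all controls, and in those of IFITM2 and IFITM3 they lie below.

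The enzymes that act on double-stranded RNA rose in part. Of their 8 tested probe sets 3 were called higher at 48 h, 5 at 72 h and 0 lower, where 10.5% and 16.1% of all were called higher. OASL, a relative of the 2-5A synthetases without their activity, read on probe set 34491_at 64.1 and 128 at 12 h, 276 and 191 at 24 h, 846 and 803 at 48 h, and 2238 and 1662 at 72 h in induced cells, against -8.5 to 324 (median 69.8) on the 8 controls. The rise was at least 6.08-fold at 48 h (log2 2.60, SE 0.45, limma adjusted p = 0.00132) and at least 11.4-fold at 72 h (log2 3.51, SE 0.45, limma adjusted p = 6.17e-05). Its other probe set, 269_at, rose 2.71-fold and 4.74-fold at these times (limma adjusted p = 0.0418 and 0.00206). The call at 48 h on 269_at ended on leaving out any of 10 arrays (adjusted p up to 0.19), and the log2 effect at 72 h was 1.63 without replicate 1 and 2.86 without replicate 2 of the induced cells. EIF2AK2, the kinase PKR that halts translation on sensing double-stranded RNA, read on probe set 38662_at 638 and 835 at 12 h, 957 and 1206 at 24 h, 1887 and 1900.2 at 48 h, and 3328 and 2156 at 72 h in induced cells, against 728 to 1143 (median 982) on the 8 controls. It rose 2.06-fold at 48 h (log2 1.04, SE 0.30, limma adjusted p = 0.0261) and 2.8-fold at 72 h (log2 1.49, SE 0.30, limma adjusted p = 0.00188). The call at 48 h ended on leaving out any of the 4 arrays of that time, with adjusted p from 0.101 to 0.114. Its probe set 1008_f_at was not called (log2 -0.61 at 48 h and 0.19 at 72 h, adjusted p = 0.29 and 0.739), so the probe sets of EIF2AK2 disagree.

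ADAR, which edits adenosine to inosine in double-stranded RNA, read 10359.6 and 9275 at 48 h and 14672 and 11579.7 at 72 h in induced cells, against 6822 and 7286 at 48 h and 6126 and 7224 at 72 h in controls. It rose 1.96-fold at 72 h (log2 0.97, SE 0.17, limma adjusted p = 0.000766) and was not called at 48 h (adjusted p = 0.0712). OAS2 read 1165 and 1114 in induced cells at 72 h, against 428 and 577 in controls, and rose 2.29-fold (limma adjusted p = 0.0342). This call ended on leaving out any of the 4 arrays of 72 h, with adjusted p from 0.0536 to 0.188. A second probe set of OAS2, 39264_at, was too dark to test. It read 203.7 and 16.6 in induced cells at 72 h, against 69.7 and 11.2 in controls. OAS1 was not called: probe set 38388_at read 692 and -51.7 in induced cells at 72 h and at most 34.1 in controls. Its second probe set, not tested, read 898 and 43.1, so both were bright on replicate 1 alone. The exonuclease ISG20 was not called either (adjusted p = 0.231 at 72 h).

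ISG15, the ubiquitin-like protein that is attached to other proteins in interferon-treated cells, rose on both of its probe sets. Probe set 1107_s_at read 2779 and 1808 at 12 h, 2545 and 1827 at 24 h, 6457 and 3756 at 48 h, and 13454 and 7425 at 72 h in induced cells. Controls read 1719 and 1812 at 0 h, 1671 and 1887 at 24 h, 1939.7 and 1922 at 48 h, and 1806 and 1768 at 72 h. The controls are nearly flat over time, and the induced arrays of 48 and 72 h lie above all of them. It rose 2.55-fold at 48 h (log2 1.35, SE 0.31, limma adjusted p = 0.00783) and 5.59-fold at 72 h (log2 2.48, SE 0.31, limma adjusted p = 4.88e-05). Without replicate 1 of the induced cells the call at 48 h ended (log2 0.96, adjusted p = 0.097). Probe set 38432_at read -9.1 and 181 at 12 h, 307 and 54.7 at 24 h, 664 and 844 at 48 h, and 4419 and 2406 at 72 h in induced cells, against -448 to 325 (median 65.2) on the 8 controls. Its rise was at least 3.57-fold at 48 h (log2 1.83, SE 0.55, limma adjusted p = 0.0333) and at least 18.5-fold at 72 h (log2 4.21, SE 0.55, limma adjusted p = 7.18e-05). The call at 48 h ended without either induced array of that time or without replicate 1 of its controls (adjusted p from 0.086 to 0.278), and the log2 effect was 1.2 without replicate 1 and 2.46 without replicate 2 of those controls. UBE2L6, the enzyme that conjugates ISG15, was not called: it read 2213 and 1501 in induced cells at 72 h, against 1746 and 1915 in controls.

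IFI16, a sensor of foreign DNA of the PYHIN family, rose at 48 and 72 h. It read 210.2 and 260.1 at 12 h, 495 and 447 at 24 h, 3447 and 2700.4 at 48 h, and 4950.3 and 3949 at 72 h in induced cells. Controls read 611 and 575 at 0 h, 182 and 439 at 24 h, 350.5 and 396 at 48 h, and 422 and 598 at 72 h. The rise was 8.19-fold at 48 h (log2 3.03, SE 0.40, limma adjusted p = 0.000187) and 8.8-fold at 72 h (log2 3.14, SE 0.40, limma adjusted p = 6.03e-05), and the 4 arrays lie far above all controls. On both induced arrays of 12 h it read lower than on the controls of 0 h, without a call (log2 -1.34, limma unadjusted p = 0.00521). MNDA, a myeloid member of the same family on the same stretch of chromosome 1, read 4078 and 5373 at 24 h, 3540.5 and 5266 at 48 h, and 3490.3 and 3038 at 72 h in induced cells. Its controls read 3076 and 2451 at 24 h, 3127 and 3194 at 48 h, and 2879 and 2897 at 72 h. It was called in the average effect alone (log2 0.46, SE 0.15, limma adjusted p = 0.0343), and not on leaving out any of 8 arrays (adjusted p up to 0.106), and its effect at 24 h was not called (log2 0.77, limma unadjusted p = 0.0127).

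Of the 6 tested probe sets of members with other roles, 1 was called higher at 48 h, 4 at 72 h and 0 lower. The shares called higher over all tested probe sets were 10.5% and 16.1%. Those of IFI44, IFI44L and LGALS3BP passed the filter only with the induced arrays, which raises these counts. IFI6, a mitochondrial protein that restrains cell death, read on probe set 1358_s_at 514 and -43.7 at 12 h, 175 and 58.0 at 24 h, 1891 and 1628 at 48 h, and 8842 and 4264 at 72 h in induced cells. Its 8 controls ran from -116 to 519.8 (median 317). It rose 6.13-fold at 48 h (log2 2.62, SE 0.58, limma adjusted p = 0.00692) and 13.4-fold at 72 h (log2 3.74, SE 0.58, limma adjusted p = 0.000307). The call at 48 h ended without replicate 1 of the induced cells (adjusted p = 0.0513) or replicate 2 of the controls (adjusted p = 0.0524). The other probe set of IFI6 stayed dark, at most 99.7 on any array.

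LGALS3BP, a secreted glycoprotein that binds galectins, was read only on the last pair of induced arrays. It read 2949 and 897 in induced cells at 72 h and below 0 on the other 14 arrays, with -2722 and -1529 in controls at 72 h. It rose at least 12.0-fold (log2 3.58, SE 0.46, limma adjusted p = 6.21e-05), at least 6.61-fold without replicate 1 and at least 21.7-fold without replicate 2 of the induced cells. Among the members its effect alone was called larger at 72 h than at 48 h (log2 difference 3.58, adjusted p = 0.031), where 0.486% of all tested probe sets were called. IFI44 and IFI44L are neighbours on chromosome 1 and encode related cytoplasmic proteins. IFI44 read 199.6 and 157 at 24 h, 482 and 562 at 48 h, and 1148 and 787 at 72 h in induced cells, against 152 to 385 (median 212) on the 8 controls, and rose 4.82-fold at 72 h (log2 2.27, SE 0.45, limma adjusted p = 0.00165). IFI44L read 87.7 and 178 at 24 h, 347 and 152 at 48 h, and 1293 and 379.5 at 72 h in induced cells, against 4.2 to 229 (median 57.8) on the controls, and rose at least 5.16-fold at 72 h (log2 2.37, SE 0.55, limma adjusted p = 0.00507). Without replicate 1 of the induced cells the call of IFI44L at 72 h ended (log2 1.48, adjusted p = 0.0578). Its call in the average effect (log2 0.94, adjusted p = 0.0374) ended on leaving out any of 9 arrays (adjusted p up to 0.104).

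IFI35, a leucine zipper protein, read on probe set 464_s_at 489.9 and 442 at 24 h, 1086 and 793 at 48 h, and 1641 and 1296 at 72 h in induced cells. Its controls read 240.2 and 499 at 24 h, 330.3 and 204 at 48 h, and 189.7 and 625 at 72 h. It was called in the average effect (log2 1.45, SE 0.43, limma adjusted p = 0.0197), a call that ended on leaving out any of 5 arrays (adjusted p up to 0.0675), and lay just outside the threshold at 72 h (4.23-fold, adjusted p = 0.0503). The other probe set of IFI35, 626_s_at, was not tested. It read 477 on replicate 1 of the induced cells at 72 h and below 0 on the other 15 arrays. The lipid scramblase PLSCR1 was not called at any time.

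Among the components of PML nuclear bodies, the sites where SP100 and PML hold back viral genomes, 1 of 5 tested probe sets was called higher at 72 h and 0 were called lower. The shares over all tested probe sets were 16.1% higher and 13.9% lower. Probe set 37353_g_at of SP100 read 759.8 and 792 at 24 h, 954 and 1145 at 48 h, and 1473 and 1462 at 72 h in induced cells. Its controls read 554 and 668 at 24 h, 562 and 676 at 48 h, and 591 and 506 at 72 h. All 6 induced arrays lie above all 6 controls of these times, and it rose 2.68-fold at 72 h (log2 1.42, SE 0.28, limma adjusted p = 0.0017). The controls of 0 h read 803 and 774 and overlap with the induced arrays of 24 h. A second probe set of SP100, 37352_at, had a log2 effect of 0.53 at 72 h and was not called (adjusted p = 0.288). Probe set 37354_at of SP100 was too dark to test. It read 242 and 320 in induced cells at 72 h, against -32.9 and 227 in controls. The 3 tested probe sets of PML had log2 effects between -0.69 and 0.39 at 72 h with adjusted p from 0.46 to 0.657, and were not called.

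Of the 6 tested probe sets of restriction factors 0 were called higher, 2 were called lower at 48 h and 3 at 72 h. Among all tested probe sets 10.5% were called higher and 8.68% lower at 48 h, and 16.1% and 13.9% at 72 h. IFITM2 and IFITM3 are membrane proteins that keep viruses from fusing with endosomes. IFITM2 read 12758 and 11529.8 at 12 h, 12471 and 11587 at 24 h, 6144 and 5278 at 48 h, and 5678 and 5234 at 72 h in induced cells. Its controls read 10583 and 13322 at 0 h, 14335 and 13368 at 24 h, 12779 and 14288 at 48 h, and 12115 and 11880.1 at 72 h. It fell 2.37-fold at 48 h (log2 -1.25, SE 0.14, limma adjusted p = 6.9e-05) and 2.2-fold at 72 h (log2 -1.14, SE 0.14, limma adjusted p = 5.15e-05). The 4 induced arrays of these times lie close together and under all others. IFITM3 read 3485 and 3492 at 12 h, 4077 and 3568 at 24 h, 2377 and 1663 at 48 h, and 1531 and 2000.3 at 72 h in induced cells. On controls it read 3461 and 3429.9 at 0 h, 5783 and 5735 at 24 h, 4207 and 4303 at 48 h, and 3811 and 4473 at 72 h. It fell 2.14-fold at 48 h (log2 -1.10, SE 0.19, limma adjusted p = 0.00134) and 2.36-fold at 72 h (log2 -1.24, SE 0.19, limma adjusted p = 0.000266).

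The probe set shared by IFITM2, IFITM3 and IFITM1, which enters no count, read 6772 and 5770.3 at 48 h and 6986 and 5089 at 72 h in induced cells. On the 8 controls it ran from 8849 to 11514 (median 10603). IFITM2, IFITM1 and IFITM3 lie side by side on chromosome 11, and near-identical sequences of the family can share signal between their probe sets. MX2, a GTPase that blocks viral capsids, read 1836 and 1843 at 48 h and 1308 and 1949 at 72 h in induced cells, against 2031 and 2499.9 at 48 h and 2429 and 2667 at 72 h in controls. It fell 1.59-fold at 72 h (log2 -0.67, SE 0.24, limma adjusted p = 0.0466), with all 4 arrays under all controls. The call of MX2 ended on leaving out any of 13 of the 16 arrays (adjusted p up to 0.311). BST2 (tetherin), which holds budding virions on the cell surface, read 11316 and 10802 in induced cells at 72 h, against 8086 and 7378 in controls, and was not called (log2 0.52, adjusted p = 0.0803). TRIM14 and TRIM21, an adaptor of antiviral signalling and a cytosolic antibody receptor, were not called at 72 h (log2 0.35 and 0.54, adjusted p = 0.312 and 0.292).

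All calls of member probe sets at single times came at 48 and 72 h. At 24 h 0 member probe sets were called by limma, as were 0.0% of all tested. At an unadjusted limma p under 0.05 there were 2, where 5.07% of all tested probe sets reached it: MNDA, and IFITM3 with a log2 effect of -0.59 (limma unadjusted p = 0.00786). For induced cells at 12 h against controls at 0 h, which differ in time as well, 0 were called against 3.28% of all, and 5 (12.5%) had an unadjusted p under 0.05, beside 20.7% of all tested. These were IFI16, PLSCR1, TRIM14 and 2 probe sets of PML. The median member effect was 0.05 at 24 h and -0.16 at 12 h, beside 0.04 and -0.15 over all tested probe sets. The effect differed between 24, 48 and 72 h for 12 member probe sets (10 genes) by the F test of the model, where 10.9% of all did. That number dropped to 4 without replicate 2 of the induced cells at 24 h, the array on which RUNX1T1 was not read, and to 7 without replicate 2 of the controls at 24 h. Some of the 12 passed the filter only with the induced arrays. In the controls, 0 member probe sets were called at 24, 48 or 72 h against 0 h, where 0.537% of all were in any of the 3, and 6 had an unadjusted p under 0.05 in any of them, beside 21.0% of all tested.

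A further 10 member genes have a probe set that was too dark to test: GBP1, GBP2, IFI27, IFIT5, IFITM1, IFNAR1, MX1, SAMHD1, SP110 and TRIM22. MX1, a GTPase that traps viral nucleoprotein, read at most 111 on any array, and SAMHD1, which depletes nucleotides, at most 70.0. The guanylate-binding protein GBP1 did not exceed 23.3, while GBP2 read 287 and 49.3 in induced cells at 72 h, against -302 and -57.8 in controls. SP110, a nuclear body protein, read 179 and 175 at 48 h and 287 and 231 at 72 h in induced cells, against 107 and -78.4 at 48 h and -108 and 117 at 72 h in controls. IFI27 was below 0 on 15 of 16 arrays and read 210.2 on replicate 1 of the induced cells at 72 h. For SP110 the induced arrays of 48 and 72 h lie above the floor and the 4 controls of those times below it, while 1 control of 0 h read 198. None of these genes was tested, so the values do not show that they stayed unchanged.

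Other genes of the pathway, outside the members, were called in both directions. Among 7 genes that damp interferon signalling 6 were tested with 10 probe sets, of which 3 were called higher and 1 lower at 72 h. The phosphatase PTPN1 rose 1.96-fold on 1 of its 3 tested probe sets and PTPN2 2.24-fold on 1 of 2. The STAT inhibitor PIAS1 rose 2.22-fold. The phosphatase PTPN6 read 609 and 113 in induced cells at 72 h, against 2070.0 and 2523 in controls, and fell with a log2 effect of -2.99 on floored values (limma adjusted p = 0.000468). Of 48 further interferon-stimulated genes 26 were tested with 33 probe sets, of which 5 were called higher and 4 lower at 48 h, and 6 were called higher and 6 lower at 72 h. Of all tested probe sets 10.5% were called higher and 8.68% lower at 48 h, and 16.1% and 13.9% at 72 h. For induced cells at 12 h against controls at 0 h, 3 of the 33 were called lower, namely APOBEC3B, BTN3A1 and HLA-E. In that comparison 3.28% of all tested were called in either direction. The median log2 effect of the 33 at 72 h was 0.03, beside 0.18 over all tested probe sets. CXCL10, a chemokine, read -82.8 and -24.6 at 24 h, 633 and 418 at 48 h, and 4439 and 1390.2 at 72 h in induced cells, against at most 72.1 on the controls of these times. It rose at least 3.8-fold at 48 h and at least 18.3-fold at 72 h (limma adjusted p = 0.012 and 2.39e-05). TAP1, the peptide transporter of antigen presentation, rose 4.52-fold at 72 h, and ZC3HAV1, which binds viral RNA, rose 3.35-fold. HLA-F rose 8.52-fold at 72 h on 1 of its 2 tested probe sets. WARS1, a tRNA synthetase that interferon gamma induces, fell 2.99-fold at 72 h, and read 834 and 1077 in induced cells, against 2697 and 2981 in controls. B2M fell 2.17-fold on 1 of 3 tested probe sets.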

How the data were processed

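RNA of U937 cells was hybridised to 16 Affymetrix U95Av2 arrays. The deposited values are linear intensities, 1 per probe set and array, which the authors scaled per array, per the labels, by a stated factor. The sources used here do not name the summary software. The mean intensity was 1371 on every array, array medians ran from 220.3 to 338, and 25.8% of values lay below 0. Replicates were compared first, and no pair held identical values. Values were floored at 135.61 and log2-transformed. Probe sets over 293, the median of all values, on at least 2 arrays were kept (7824 of 12626, with 67 control probe sets left out). Linear models with 1 mean per group were fitted across all 7824 with limma 3.58.1 (R 4.3.3, eBayes with a mean-variance trend, 8 residual degrees of freedom), and p-values are two-sided. The code was tested on simulated data. Tables were joined in Python 3.11.15 with pandas 2.3.3.

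Genes were named from the platform annotation, in which 10961 probe sets have 1 symbol, 546 several and 1119 none. Values of each array are given for the 4 receptor genes and for called probe sets with the largest average effects, up to 12 higher and 6 lower, 1 per gene. Other members and pathway genes were added after their values were seen. The members and gene lists were chosen with earlier results of these data known. Alternatives changed the floor, transform, filter, scaling, variance prior, replicate block and controls, and left out each array in turn.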

Additional observations from a re-analysis of the deposited data

Results flagged for a closer look

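For 12 member probe sets the effect of AML1-ETO induction differed between 24, 48 and 72 h by limma's moderated F test of the model across all 7824 probe sets, beside 10.9% of all. The receptor chain IFNGR2 had the smallest adjusted p of them, at 0.000788, with log2 effects of 0.09 at 24 h, -2.22 at 48 h and -3.01 at 72 h. IFITM2, also lower in induced cells, had an adjusted p of 0.0068. The other 10 probe sets were called higher at 72 h. Their adjusted p was 0.0034 for LGALS3BP, 0.00412 for 915_at of IFIT1, 0.00821 for 34491_at of OASL and 0.0123 for 38432_at of ISG15. It was 0.0129 for IFI6, 0.0137 for 1107_s_at of ISG15 and 0.0186 for IFI16. It was 0.0368 for ADAR, 0.0432 for IFIT3 and 0.0446 for 32814_at of IFIT1. Of the 10, LGALS3BP, IFIT3, 915_at of IFIT1, 34491_at of OASL and 38432_at of ISG15 passed the filter only with the induced arrays. RUNX1T1 was not read on replicate 2 of the cells labelled as induced at 24 h, and its part in these differences was not tested. Without that array 4 of the member probe sets passed the F test, and without replicate 2 of the controls at 24 h 7 did.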

How the results depend on the processing

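Of 60 called values of 25 member probe sets that were followed, 37 kept their call under every alternative tried, 23 lost it under at least 1, and 0 turned their direction. The number called higher in the average effect was 20, fell to 12 with the controls of 0 h in place of those of the same time, and was 15 to 21 under the other alternatives. The number called higher at 48 h was 12, and 5 to 12 on leaving out single arrays, with the lowest count without replicate 1 of the induced cells at 48 h and 7 without either control of 48 h. The number called higher at 72 h was 14 to 20, and the number called lower was 3 to 4 in the average effect and at both times. At 12 h against 0 h, 0 were called, but 1 was under a floor at the median of all values and under the stricter filter (567_s_at of PML both times, lower, log2 -0.70, adjusted p = 0.0477 and 0.0468 by limma) and 1 under median centring (TRIM14, log2 0.80, limma adjusted p = 0.0453). Leaving out single arrays gave 0 to 1, the 1 being IFI16, lower, without either control of 24 h (limma adjusted p = 0.0338 and 0.0362). The F test between times passed 12 probe sets, 7 under the inverse hyperbolic sine, and 4 to 14 on leaving out single arrays. Probe set 1568_s_at of IFNAR2 was not called, and its average log2 effect of 0.01 became -0.21 under quantile normalization, -0.13 under median centring and -0.19 against the controls of 0 h, with -0.15 to 0.17 on leaving out single arrays. The cause of these changes was not tested. At 24 h and in the controls over time 0 were called under all alternatives.

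The groups share replicate numbers 1 and 2, and no label says that a number marks a shared culture or day. The replicate differences of 2 groups correlated at -0.152 to 0.25, with some pairs of groups above 0.1, such as 0.214 for induced cells at 48 and 72 h, and most below it, so the numbers were not taken to pair the samples. With the replicate number as a block, 21 were called higher and 4 lower in the average effect, 13 and 3 at 48 h, 19 and 4 at 72 h, 11 by the F test, and 0 at 12 and 24 h.

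With 2 arrays per group, precision rests on the spread shared over all groups. Probe sets near the floor have no measured order there, and 9.81% of the tested values lay at it. Per-array scaling by the authors sets all levels relative to each array's mean, so a change in total RNA per cell is not seen. Median effects over all tested probe sets were 0.10 in the average effect, 0.18 at 72 h and -0.15 at 12 h, and changes are to be read beside these shifts.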
